A study of Mus musculus with 14 samples.

Results

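Transverse aortic constriction (TAC), an operation that narrows the aorta and raises the pressure against which the left ventricle pumps, was compared with a sham operation in hearts of Clk3 knockout mice. The comparison takes every library labelled as Clk3 knockout, 4 after TAC and 4 after sham, which are 8 of the 14 libraries of the series. The other 6 are wild type. They enter only the choice of genes with enough counts, the library scaling, the estimate of spread and the comparison of genotypes at the end. All mice were on the C57BL/6J background, and each library holds messenger RNA of heart tissue counted per gene. Knockout sham libraries 1 and 2 came from mice of 11 weeks, while sham libraries 3 and 4 and all 4 knockout TAC libraries came from mice of 10 weeks. Wild-type sham libraries 1 and 2 also came from mice of 11 weeks, and wild-type sham libraries 3 and 4 and both wild-type TAC libraries from mice of 10 weeks. The targeted allele, the cells in which Clk3 is lost, the sex of the mice and the time between surgery and collection are stated in no source used here. Whether each library is a separate animal is not stated. The p-values then reflect only how these libraries vary, which may be technical.

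Clk3 encodes a CDC2-like kinase of the nucleus that phosphorylates serine/arginine-rich (SR) splicing factors. Under pressure overload, heart muscle cells enlarge and raise genes of the fetal heart such as the natriuretic peptides and beta-myosin. Fibroblasts lay down collagen and other matrix, while genes of fatty acid oxidation and of the currents that end each heartbeat often decline. The question here is which of these changes are seen when Clk3 is knocked out.

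Counts assigned to genes ranged from 13334635 to 14733656 in the 4 sham libraries and from 11385818 to 18080226 in the 4 TAC libraries. Clk3 itself (ENSMUSG00000032316.8, GRCm38 chromosome 9, 57750624 to 57765860, minus strand) had 67.4, 64.8, 62.8 and 66.9 CPM after sham and 64.9, 54.9, 50.7 and 61.4 CPM after TAC, where CPM stands for library-scaled counts (the usual unit of counts set against library size) and the order is library 1 to 4, as throughout. In wild type it had 73.2, 92.5, 77.2 and 96 CPM after sham and 54.2 and 92.3 CPM after TAC. The library labelled wild-type TAC 1 thus lies in the knockout range. Clk3 reads were still counted in every knockout library, and gene totals do not show which part of the gene the allele removes. The myosin heavy chain of the adult heart, Myh6, stood at 11207 to 15161 CPM in the 8 libraries. Reads outside annotated genes made up 18.0% ± 0.833 of counted reads after sham and 13.3% ± 0.870 after TAC (SD, n = 4 each), with no overlap between groups (difference of means -4.64 percentage points, exact two-sided permutation p = 0.0286, the smallest that 4 against 4 allows).

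The first principal component of the 8 libraries held 40.1% of the variance and separated the operations, with sham libraries from -35.8 to -9.36 and TAC libraries from 18.8 to 27.1. A clock score, the mean log2 CPM of Arntl and Npas2 minus that of Dbp, Per3, Nr1d1, Tef and Ciart, also moved with surgery, except in 2 libraries. Sham libraries 1, 2 and 3 scored -4.87, -4.76 and -4.74, and sham library 4 scored -2.20. TAC libraries 1, 2 and 4 scored -1.93, -1.79 and -2.09, and TAC library 3 scored -4.08. Sham library 4 therefore lay near the other TAC libraries in this score. TAC library 3 lay between the groups, nearer to sham libraries 1, 2 and 3 but above them. The plot of principal components and clock score shows both. In wild type the sham libraries scored -4.85 to -4.27 and the TAC libraries -2.25 and -2.03. Knockout sham library 4 and TAC library 3 are thus nearly all that separates this score from surgery in the fit. A call lost with the clock score as a term therefore cannot be assigned to either. Calls among gene lists are given below with that term, and without both libraries, sham 4 and TAC 3, where that moves a count by over 1.5 times.

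**Figure D1:**
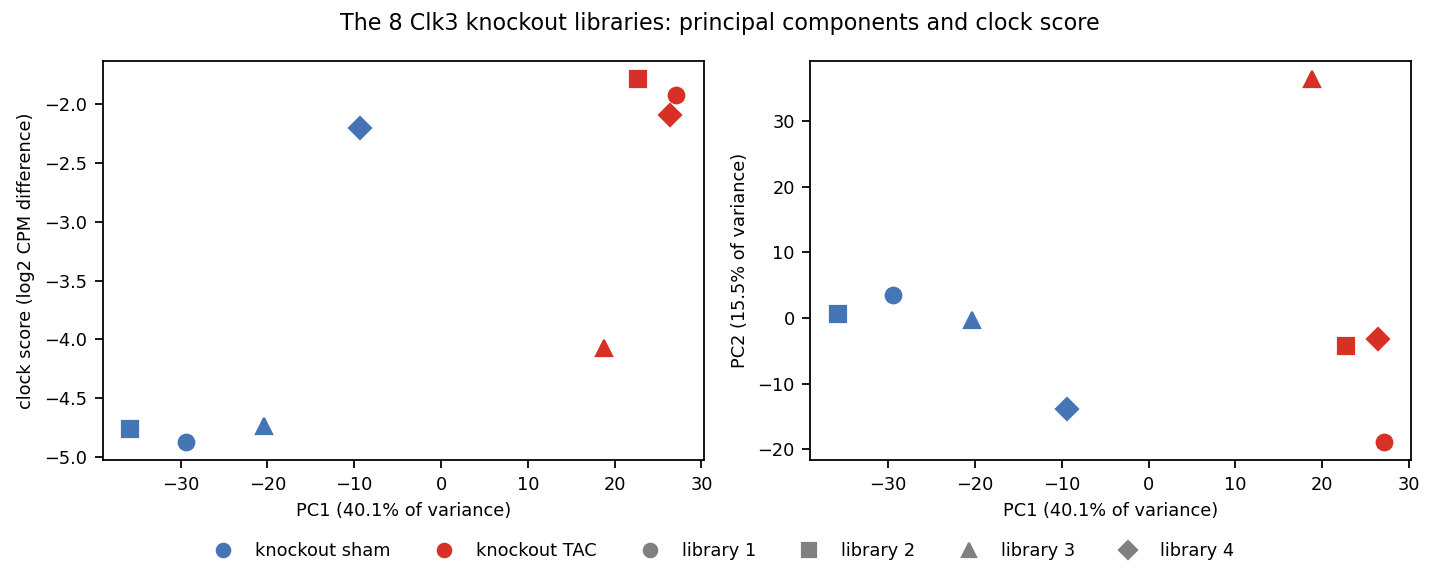
Each point is a Clk3 knockout library, blue for sham and red for TAC, with the marker shape giving its number in the group. The left panel plots the clock score (log2 CPM difference) and the right panel the second principal component (15.5% of variance) against the first (40.1%). Sham library 4 (clock score -2.20) lies near the other TAC libraries, TAC library 3 (clock score -4.08) lies between the groups and nearer to sham libraries 1, 2 and 3, and TAC library 3 is highest on the second component (36.4).

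Of 15651 genes with enough counts to test, 2033 (13.0%) differed between TAC and sham in knockout hearts at an adjusted p under 0.05. Each p comes from edgeR's quasi-likelihood test with Benjamini-Hochberg adjustment over all genes tested, and "rose" and "fell" below mean past that threshold. There were 1053 genes that rose (6.73%) and 980 that fell (6.26%), and in 1666 of the 2033 the 4 TAC libraries did not overlap the 4 sham libraries. Without regard to the test, 21.8% of all genes tested showed no overlap. Most changes were small, with a median fold of 1.38 among genes that rose and 1.48 among those that fell. Of all genes tested, 128 rose and 208 fell by at least 2-fold, and 26 and 18 by at least 4-fold. The median log2 change over all genes tested was -0.01.

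This count depended on the libraries and on the model. With the clock score as a term it was 255 (1.63%), although all 2033 genes kept their direction and 246 of them still passed, with changes a median of 0.873 times as large. Among the 10-week libraries alone, with 2 sham libraries against 4 TAC libraries, it was 15 (0.0975%), and the 2018 called genes that could be fitted all kept their direction at a median of 0.882 times the size. Among those 15 genes were Nppa, Ankrd1, Ltbp2, Cilp, Pi16, Tgfb2 and Pfkfb1, described below, and 5 others named after their values were seen: Cyp1b1, Dpysl3, Adam22, Ppip5k2 and 9430062P05Rik. Leaving out a sham library gave 995 (sham 1), 797 (sham 2), 1272 (sham 3) or 2080 (sham 4) calls, and leaving out a TAC library gave 1283 (TAC 1), 1267 (TAC 2), 1854 (TAC 3) or 1036 (TAC 4). In all, 698 genes passed whichever knockout library was left out. Of the 152 called genes that the naming rule takes, 97 passed whichever was left out, 54 with the clock term and 9 in the 10-week libraries. Without sham library 4 and TAC library 3 together the count was 2096 (13.5%). With the knockout libraries alone, 14637 genes had enough counts to test and 2772 (18.9%) were called. Of the 2033 genes, 1977 could be fitted there and 1899 passed in the same direction. Sprr1a, Xlr4b, Gpr75 and Acan, described below, could not be fitted there. The mice of 11 weeks are found among sham libraries only, so age and surgery cannot be told apart in them.

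**Figure D2:**
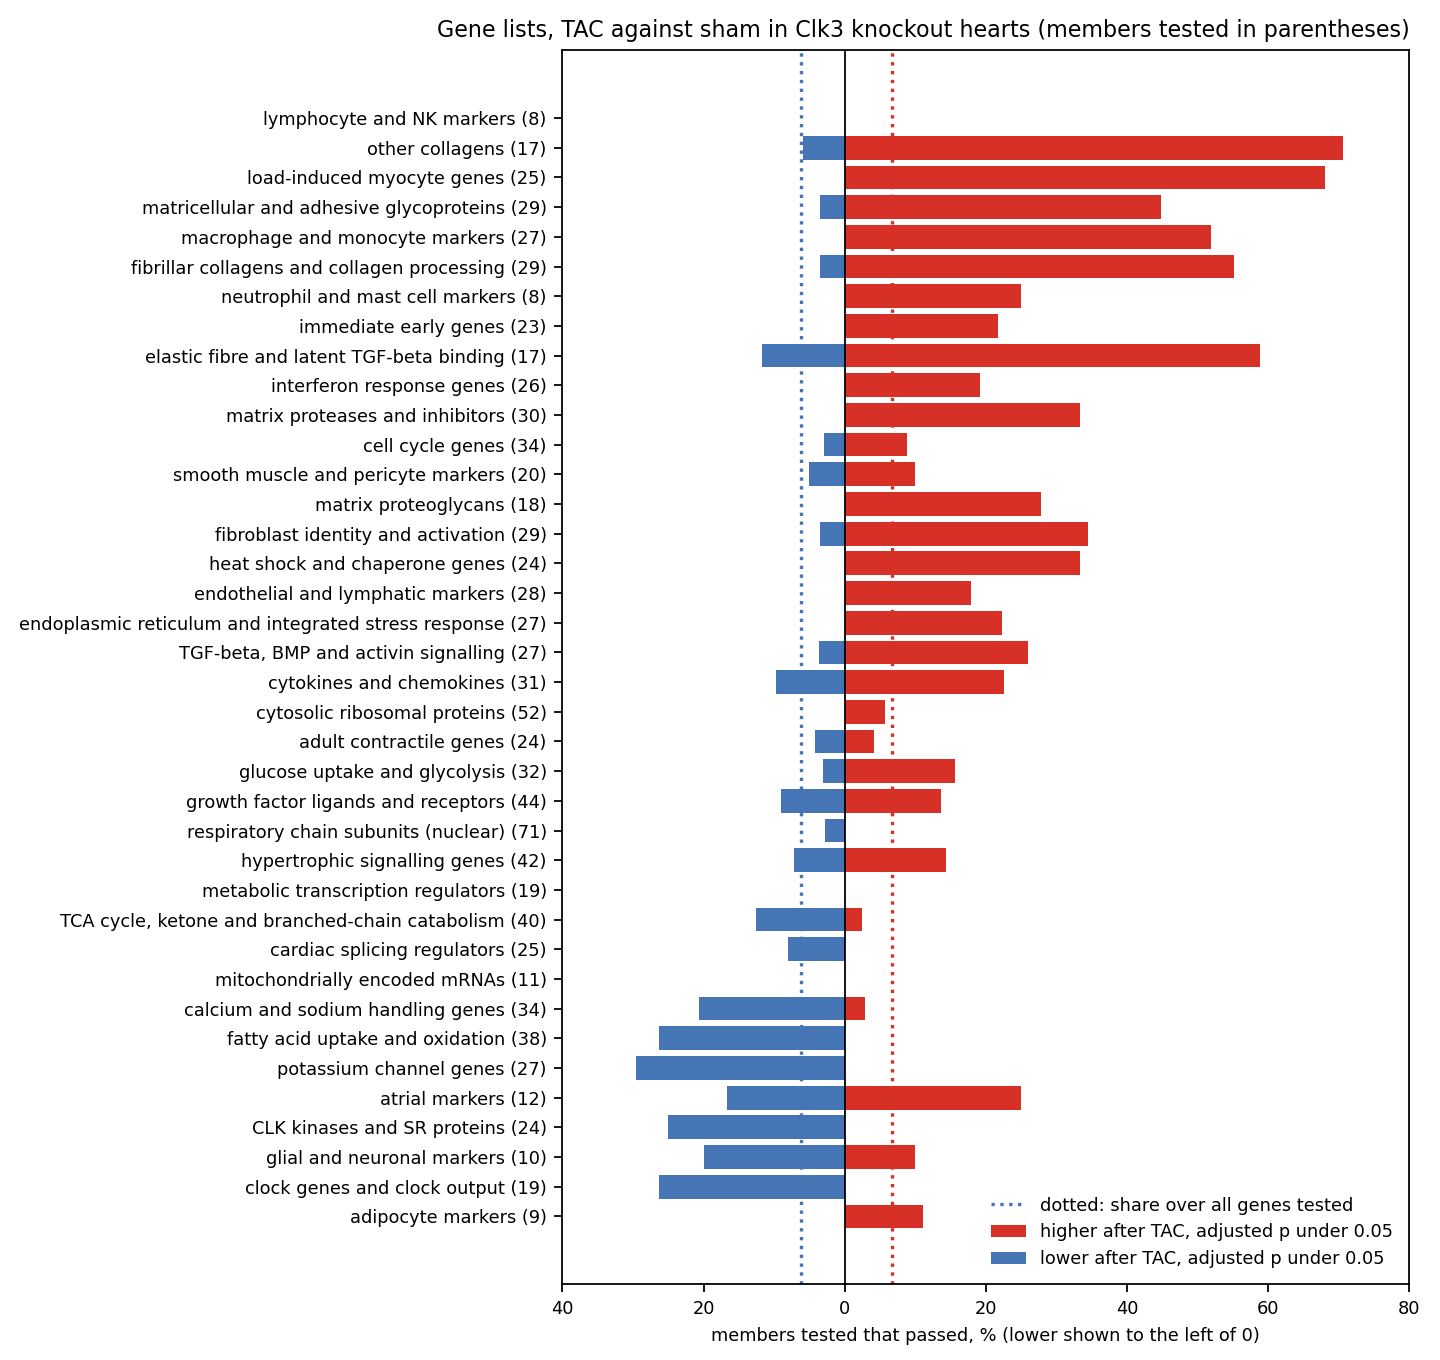
Bars give the percent of tested members of each gene list shown that rose (red, right of 0) or fell (blue, left of 0) after TAC in knockout hearts at an edgeR adjusted p under 0.05, with the number tested in parentheses and lists ordered by their median log2 change. The epicardial and red cell lists, with 6 and 7 members tested, are left out. Dotted lines mark the shares over all genes tested, 6.73% higher and 6.26% lower; collagen, matrix, macrophage and load-induced lists extend far to the right, and potassium channel, fatty acid and clock lists to the left.

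Most load-induced genes of heart muscle cells rose. Of 28 listed, 25 were tested, 17 rose and none fell, and the median log2 change of the tested members was 0.65 against -0.01 over all genes. The list is made of genes held to rise under load. Like the other lists, it was chosen with earlier results of these data known. Its high share of rises is therefore a description and no independent support. The promoters of Nppa and Acta1, both load markers followed in the comparisons below, are shown first. Those of Nppb and Ankrd1 were also taken but are not shown. In them 112 and 250 bases lay inside the annotated gene. Each sequence is the 250 bases before the RefSeq start of the gene, read 5′ to 3′ on the gene's strand from RefSeq promoters of GRCm38.p6, at chr4:148000472-148000721 (plus strand) for Nppa and chr8:123894776-123895025 (minus) for Acta1. Neither window reaches into the gene as GENCODE M21 places it. Capitals mark matches on either strand to the MCAT element CATTCC, bound by TEAD factors, to the GATA element GATAA, and to the CArG box, bound by serum response factor.
Nppa: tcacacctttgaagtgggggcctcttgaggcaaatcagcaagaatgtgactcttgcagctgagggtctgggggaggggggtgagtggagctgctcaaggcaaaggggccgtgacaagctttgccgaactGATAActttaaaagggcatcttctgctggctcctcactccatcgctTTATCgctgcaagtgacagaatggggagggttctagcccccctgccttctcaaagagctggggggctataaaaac
Acta1: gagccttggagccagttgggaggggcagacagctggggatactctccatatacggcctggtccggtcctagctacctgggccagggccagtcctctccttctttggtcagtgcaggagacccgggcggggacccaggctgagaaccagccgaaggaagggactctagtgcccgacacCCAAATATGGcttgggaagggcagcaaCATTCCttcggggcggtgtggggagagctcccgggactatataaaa
The Nppa window held 2 GATA matches, and the Acta1 window 1 MCAT match and 1 CArG box, with no match overlapping another. In the 14181 promoter windows of the same length of genes tested here, 11.1% held the MCAT letters, 15.1% the GATA letters and 1.23% a CArG box. In all 32851 windows the shares were 12.6%, 22.6% and 1.47%. Among windows of genes that rose the shares were 13.1%, 12.9% and 1.38%, and among windows of genes that fell 10.7%, 15.2% and 1.35%. These are matches of letters and say nothing of binding in these hearts.

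Nppa, which encodes atrial natriuretic peptide, had 195, 162, 235 and 118 CPM after sham and 909, 639, 1119 and 709.8 CPM after TAC. Every TAC library was above every sham library, and TAC library 3 was the highest (4.75-fold, log2 change 2.25 ± 0.24, adjusted p = 0.000298). It passed in every alternative fit tried, including the 10-week libraries alone (adjusted p = 0.0207) and the clock term (adjusted p = 0.000713). Nppb, which encodes the B-type peptide, had 216, 141, 268 and 328 CPM after sham and 864, 532, 382 and 507 CPM after TAC. The groups did not overlap, but the gap between sham library 4 and TAC library 3 was narrow (log2 change 1.26 ± 0.25, adjusted p = 0.00535).

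Myh7, the slow beta-myosin heavy chain of the fetal ventricle, had 292, 316, 742 and 432 CPM after sham and 3063, 1725, 1454 and 1427 CPM after TAC. TAC library 1 was far above the other TAC libraries and sham library 3 above the other sham libraries, with no overlap (log2 change 2.11 ± 0.41, adjusted p = 0.0049). Its adult counterpart Myh6 did not pass (log2 change -0.12 ± 0.12, adjusted p = 0.543), with TAC libraries from 11207 to 15161 CPM on both sides of the sham libraries. Acta1, the skeletal alpha-actin that is raised in loaded hearts, had 312, 264, 224 and 190.1 CPM after sham and 1618, 1365, 296 and 1524 CPM after TAC. TAC library 3 lay within the sham range while the other 3 were over 4 times the highest sham library (log2 change 2.28 ± 0.46, adjusted p = 0.00622). With the clock term Nppb, Myh7 and Acta1 all lost their calls (adjusted p = 0.131, 0.0761 and 0.346), at log2 changes of 0.79, 2.04 and 1.49.

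Ankrd1, a stretch-responsive cofactor of the sarcomere and nucleus, had 1385, 1275, 1478 and 1050.0 CPM after sham and 2891, 2424, 2176 and 2735 CPM after TAC. The groups did not overlap and TAC library 1 was the highest (1.97-fold, log2 change 0.98 ± 0.12, adjusted p = 0.000436). Gdf15, a secreted stress cytokine, had 1.24, 1.3, 1.2 and 2.12 CPM after sham and 15, 5.95, 7.99 and 6.21 CPM after TAC, with TAC library 1 the highest (log2 change 2.56 ± 0.32, adjusted p = 0.000585). Enah, an actin regulator of the intercalated disc, rose from 238 ± 18.1 to 366 ± 28.2 CPM (mean ± SD, n = 4 each; log2 change 0.62). Rcan1, the calcineurin inhibitor that is itself a calcineurin target, had 108, 97.6, 108 and 162 CPM after sham and 392, 284, 164 and 269.7 CPM after TAC, so that TAC library 3 only just exceeded sham library 4 (log2 change 1.22 ± 0.23, adjusted p = 0.00433). Rises also passed for Des, the intermediate filament desmin (log2 change 0.37), and for Uchl1, a deubiquitinase that neurons also express (log2 change 0.61), although the call of Uchl1 was lost in 5 of the 8 fits that each left out 1 library. Calls in the list numbered 14 to 18 whichever knockout library was left out, 5 with the clock term and 2 in the 10-week libraries.

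**Figure D3:**
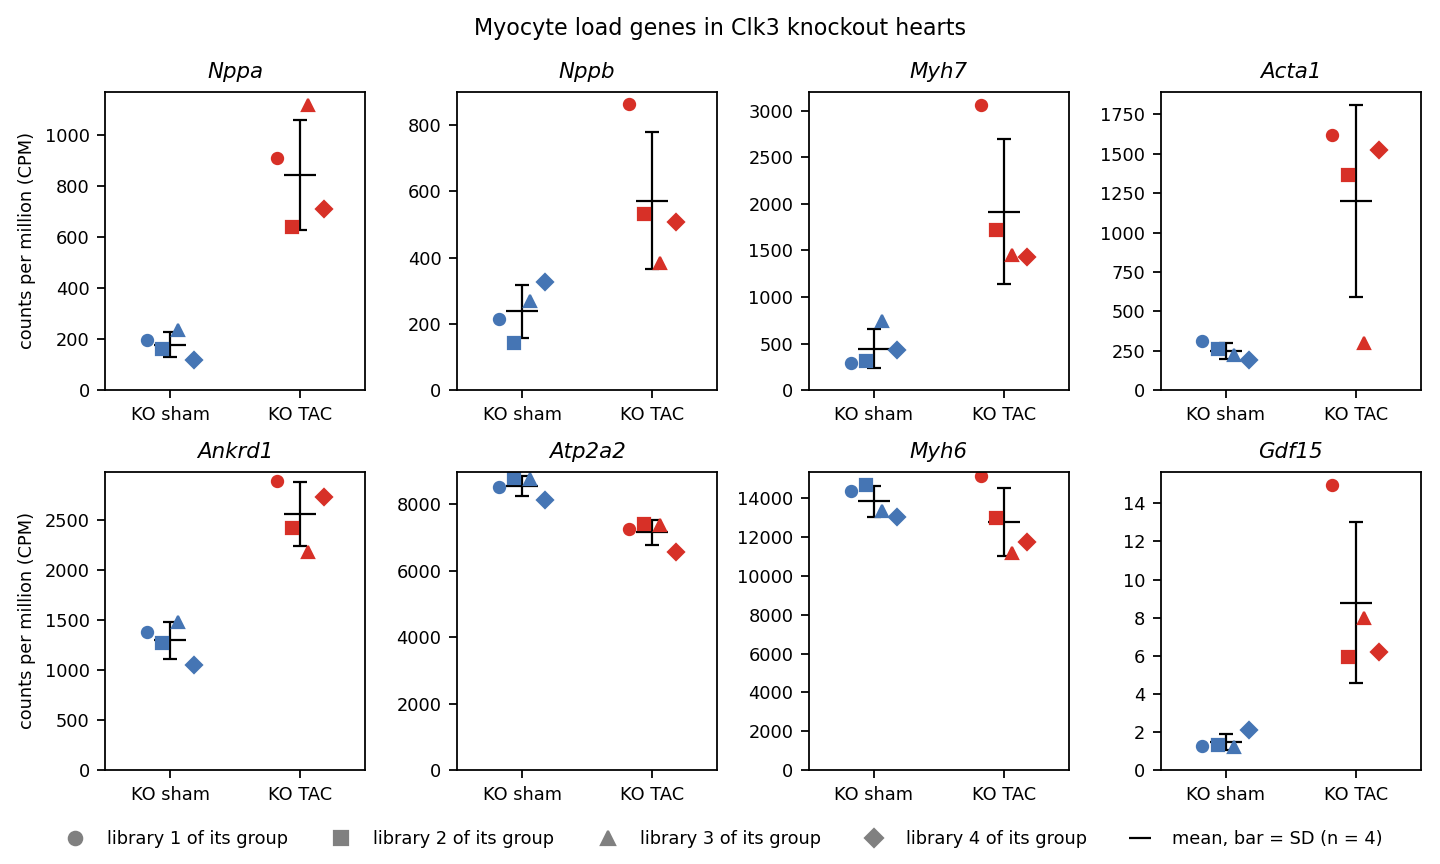
Each panel plots the CPM of a gene in the 4 knockout sham (blue) and 4 knockout TAC (red) libraries, with marker shape for library number and black bars for mean ± SD (n = 4). Nppa, Nppb, Myh7, Ankrd1 and Gdf15 do not overlap between groups and are higher after TAC, Atp2a2 does not overlap and is lower, Acta1 in TAC library 3 (296 CPM) lies among the sham libraries, and Myh6 overlaps.

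Genes of the adult contractile apparatus changed little. Of 24 tested, 1 rose and 1 fell (8.33% called, against 13.0% of all genes tested), with a median log2 change of 0.03. The gene that rose was Actn2, the alpha-actinin of the Z disc, at 1621, 1738, 1682 and 1544 CPM after sham and 2241, 2084, 1778 and 1943 CPM after TAC (log2 change 0.29 ± 0.08, adjusted p = 0.0351). The gene that fell was Ttn, which encodes titin, at 10551, 11007, 10961 and 9818 CPM after sham and 9363, 9561, 7929.8 and 7706 CPM after TAC (log2 change -0.29 ± 0.09, adjusted p = 0.043). TAC and sham libraries did not overlap for either gene, but the shifts were small, both calls were lost with the clock term, and Ttn lost its call in 5 and Actn2 in 7 of the 8 fits that each left out 1 knockout library. Tcap and Pdlim5, which anchor titin and the Z disc, did not pass (-0.33 ± 0.12 and 0.19 ± 0.07 on the log2 scale).

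Among the 12 largest rises by log2 change, of protein-coding genes of at least 1 CPM without overlap, were Serpinb1c, Fmod, Sprr1a, Gdf15, Col8a2, Comp, Timp1, Nppa, Ltbp2, Myh7 and Cilp. Serpinb1c, a serine protease inhibitor with near-identical relatives among which reads may be divided, had 0.413, 0.153, 0.0705 and 0.292 CPM after sham and 2.95, 2.3, 1.63 and 3.1 CPM after TAC (log2 change 3.35 ± 0.50, adjusted p = 0.0014). Sprr1a, a small proline-rich protein induced in stressed cardiomyocytes, had 0.138, 0.23, 0 and 0.146 CPM after sham and 1.11, 0.541, 1.03 and 1.52 CPM after TAC, so its sham level rests on very few reads (log2 change 2.97 ± 0.53, adjusted p = 0.00341). Timp1, the inhibitor of matrix metalloproteinases, had 1.65, 1.15, 2.47 and 1.39 CPM after sham and 3.69, 4.26, 5.87 and 17.8 CPM after TAC, with TAC library 4 far above the rest (log2 change 2.25 ± 0.44, adjusted p = 0.00564).

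Collagen genes rose broadly. Of 29 genes for fibrillar collagens and the enzymes that process them, 16 rose and 1 fell, with a median log2 change of 0.51. Col1a1 and Col1a2 encode the chains of type I collagen. Col1a1 had 93.2, 84.3, 79.2 and 116 CPM after sham and 172, 159.9, 158 and 216 CPM after TAC. Col1a2 had 169, 149, 144 and 166 CPM after sham and 248, 229.6, 252 and 318 CPM after TAC. All TAC libraries of both genes exceeded all sham libraries, and TAC library 4 was the highest (log2 change 0.92 ± 0.13, adjusted p = 0.00128 and log2 change 0.74 ± 0.10, adjusted p = 0.000842). Col5a2, a chain of the type V collagen that starts fibrils, rose from 55 ± 5.51 to 96.7 ± 15.2 CPM (log2 change 0.81 ± 0.13, adjusted p = 0.00211), and Pcolce, which enhances removal of the procollagen tail, rose from 44.9 ± 2.76 to 68.8 ± 7.25 CPM (log2 change 0.62 ± 0.10, adjusted p = 0.00197). Named after their values were seen, Col3a1 rose by a log2 change of 0.77 ± 0.14 and Lox, which cross-links collagen, by 1.05 ± 0.18. The gene that fell was Adamts3, a procollagen protease, at 6.4, 10.1, 7.19 and 4.68 CPM after sham and 2.77, 5.34, 4.46 and 4.03 CPM after TAC (log2 change -0.75 ± 0.23, adjusted p = 0.0429), a call lost in 6 of the 8 fits that each left out 1 library.

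Network, basement membrane and fibril-associated collagens also rose in most tested members. Of 18 listed 17 were tested, 12 rose and 1 fell, with a median log2 change of 0.66. Col8a1 and Col8a2, the short-chain collagens of vessel walls and fibrotic tissue, rose by log2 changes of 1.17 ± 0.22 and 2.49 ± 0.52. Col8a1 had 45.2, 36.1, 49.7 and 40.4 CPM after sham and 88.6, 91.4, 75.2 and 129.8 CPM after TAC. Col8a2 was much lower, at 0.619, 0.459, 0.564 and 0.731 CPM after sham and 2.03, 2.16, 6.9 and 1.98 CPM after TAC, and TAC library 3 was over 3 times the other TAC libraries. Col6a3, of the microfibrillar type VI collagen, had 49.8, 41.2, 46.6 and 62.5 CPM after sham and 82, 72.5, 70.6 and 85.5 CPM after TAC. Col16a1, a fibril-associated collagen, rose from 13.6 ± 0.676 to 22.8 ± 4.97 CPM (log2 changes 0.63 and 0.74). Col4a1, of the basement membrane, had 492, 454, 507 and 651 CPM after sham and 1032, 1031, 651 and 1098 CPM after TAC, where TAC library 3 equalled sham library 4 to the printed digits (log2 change 0.86 ± 0.17, adjusted p = 0.00632). With the clock term its log2 change was 0.46 and the call was lost (adjusted p = 0.178). Col6a6 fell (log2 change -0.81 ± 0.21, adjusted p = 0.0196). Fibrillar collagen calls numbered 10 without sham 2 and 11 without TAC 4, sham 1 or sham 3, and calls among the other collagens 10 to 13 whichever knockout library was left out. With the clock term the 2 lists had 7 and 4 calls, and among the 10-week libraries 0 and 0, where the median log2 changes were 0.42 and 0.57.

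Matricellular and adhesive glycoproteins, which sit in the matrix and signal to cells, rose in 13 of 29 tested and fell in 1 (median log2 change 0.61). Postn, the periostin of activated fibroblasts, had 63.9, 57.4, 71.6 and 72 CPM after sham and 156, 158, 188 and 227 CPM after TAC with no overlap (2.75-fold, log2 change 1.46 ± 0.19, adjusted p = 0.000723). Fn1, fibronectin, had 45.8, 39.8, 43.6 and 44.6 CPM after sham and 79.3, 79, 68.2 and 102 CPM after TAC (log2 change 0.92 ± 0.11, adjusted p = 0.000436). Cilp, a matrix protein that binds TGF-beta, had 12.2, 9.57, 12.7 and 12.4 CPM after sham and 41.9, 31.7, 71.1 and 55.5 CPM after TAC, with TAC libraries 3 and 4 the highest (4.28-fold, log2 change 2.10 ± 0.24, adjusted p = 0.000436). Sparc, a collagen-binding glycoprotein, rose from 376 ± 51.3 to 689 ± 128 CPM (log2 change 0.88 ± 0.13, adjusted p = 0.0014). Comp, a thrombospondin of tendon and cartilage, had 4.75, 2.91, 1.06 and 2.34 CPM after sham and 6.09, 6.02, 27 and 15.1 CPM after TAC, where TAC libraries 1 and 2 only just exceeded sham library 1 and the call was lost in 5 of the 8 fits that each left out 1 library (log2 change 2.32 ± 0.65, adjusted p = 0.0314). The member that fell was Thbs2 (log2 change -0.42 ± 0.12), a call lost in 6 of those 8 fits, whereas Thbs1 and Tnc, also named after their values were seen, rose by 1.66 ± 0.28 and 1.79 ± 0.31. Glycoprotein calls numbered 9 without TAC 4 or sham 2, and 8 with the clock term.

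Proteoglycans, the sugar-bearing proteins of the matrix, rose in 5 of 18 tested and fell in none (median log2 change 0.31). Bgn, biglycan, had 191, 148, 177 and 179 CPM after sham and 316, 306, 262 and 411 CPM after TAC. Prelp, which anchors basement membranes to connective tissue, had 49.3, 40.4, 40.9 and 46.9 CPM after sham and 58.6, 58.8, 66 and 64.7 CPM after TAC. Neither overlapped between groups (log2 change 0.90 ± 0.13, adjusted p = 0.00148 and log2 change 0.48 ± 0.07, adjusted p = 0.00189). Prg4, lubricin, rose from 13.4 ± 2.82 to 24.1 ± 4.22 CPM (log2 change 0.85 ± 0.18, adjusted p = 0.00876). Fmod, fibromodulin, had 1.1, 0.306, 0.493 and 0.365 CPM after sham and 2.49, 1.62, 11.5 and 2.71 CPM after TAC, where TAC library 3 was over 4 times any other library and the call was lost in 6 of the 8 fits that each left out 1 library (log2 change 3.03 ± 0.91, adjusted p = 0.0401). Acan, aggrecan, had 0.344, 0.0766, 0.0705 and 0.365 CPM after sham and 1.2, 1.28, 0.109 and 1.98 CPM after TAC, with TAC library 3 among the sham libraries (log2 change 2.32 ± 0.72, adjusted p = 0.0453). The call of Acan was also lost in 6 of the 8 fits. Proteoglycan calls numbered 3 without TAC 4, sham 1, sham 2 or sham 3, and 3 with the clock term.

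Elastic fibre genes and the latent TGF-beta binding proteins rose in 10 of 17 and fell in 2 (median log2 change 0.42). Ltbp2, a fibrillin-binding relative of the latent TGF-beta binding proteins, had 4.27, 3.83, 4.09 and 3.14 CPM after sham and 12.9, 12.5, 21.5 and 19.8 CPM after TAC, with TAC libraries 3 and 4 above 1 and 2 and no overlap (4.37-fold, log2 change 2.13 ± 0.23, adjusted p = 0.000298). It also passed in every alternative fit tried. Mfap5, a microfibril protein, had 21.7, 19.3, 19.2 and 25.6 CPM after sham and 47.3, 41.8, 49.7 and 58.9 CPM after TAC. Mfap4 had 10.2, 7.96, 10.2 and 13.1 CPM after sham and 27.5, 24.7, 41.2 and 43.2 CPM after TAC. Every TAC library of both was above every sham library (log2 change 1.20 ± 0.15, adjusted p = 0.000585 and log2 change 1.72 ± 0.26, adjusted p = 0.00158). Fbln5, which assembles elastin, rose from 28.3 ± 2.18 to 36.2 ± 2.07 CPM (log2 change 0.35 ± 0.08, adjusted p = 0.00935). Emilin2 and Efemp1 fell (log2 changes -0.52 ± 0.15 and -0.86 ± 0.26), and their calls were lost in 6 and in 8 of the 8 fits that each left out 1 library. Elastic fibre calls numbered 4 without TAC 4 or sham 2, 5 without sham 3 and 6 without TAC 1 or sham 1, and 3 with the clock term.

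Matrix proteases and their inhibitors rose in 10 of 30 tested and fell in none (median log2 change 0.34). Mmp2, gelatinase A, had 59.5, 53.2, 57 and 65.4 CPM after sham and 90.0, 82, 103 and 107 CPM after TAC (log2 change 0.70 ± 0.09, adjusted p = 0.000585). Mmp23 rose from 7.17 ± 0.925 to 12.2 ± 0.881 CPM, and Ctsk, the collagen-degrading cathepsin K, rose from 5.4 ± 0.32 to 10.0 ± 1.88 CPM, both without overlap (log2 changes 0.76 ± 0.11 and 0.90 ± 0.16). Adam12, a membrane protease of activated mesenchymal cells, had 0.895, 0.689, 0.845 and 0.731 CPM after sham and 2.31, 2.1, 1.41 and 2.97 CPM after TAC (log2 change 1.45 ± 0.28, adjusted p = 0.0049). Protease calls numbered 6 without sham 2, and 3 with the clock term.

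In TGF-beta, bone morphogenetic protein and activin signalling, 7 of 27 tested genes rose and 1 fell (median log2 change 0.15). The ligand Tgfb2 had 12.8, 15.5, 12.5 and 14 CPM after sham and 25.7, 22.6, 24 and 27.6 CPM after TAC, with all TAC libraries above all sham libraries (log2 change 0.87 ± 0.12, adjusted p = 0.00128), and passed in the 10-week libraries alone (adjusted p = 0.0397). The ligand Tgfb3 had 17.7, 20.1, 17.3 and 24.8 CPM after sham and 29.8, 26.1, 29 and 33 CPM after TAC (log2 change 0.56 ± 0.11, adjusted p = 0.00638). Fstl1, a secreted follistatin-like protein, rose from 131 ± 12.9 to 228 ± 38.4 CPM (log2 change 0.80 ± 0.13, adjusted p = 0.00248). The co-receptor Tgfbr3, betaglycan, fell from 60.8 ± 3.52 to 43 ± 8.6 CPM, with TAC libraries 1 and 2 the lowest (log2 change -0.50 ± 0.12, adjusted p = 0.0139). The number of calls was 4 without sham 2 and 5 without TAC 2 or TAC 4, and 1 with the clock term.

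**Figure D4:**
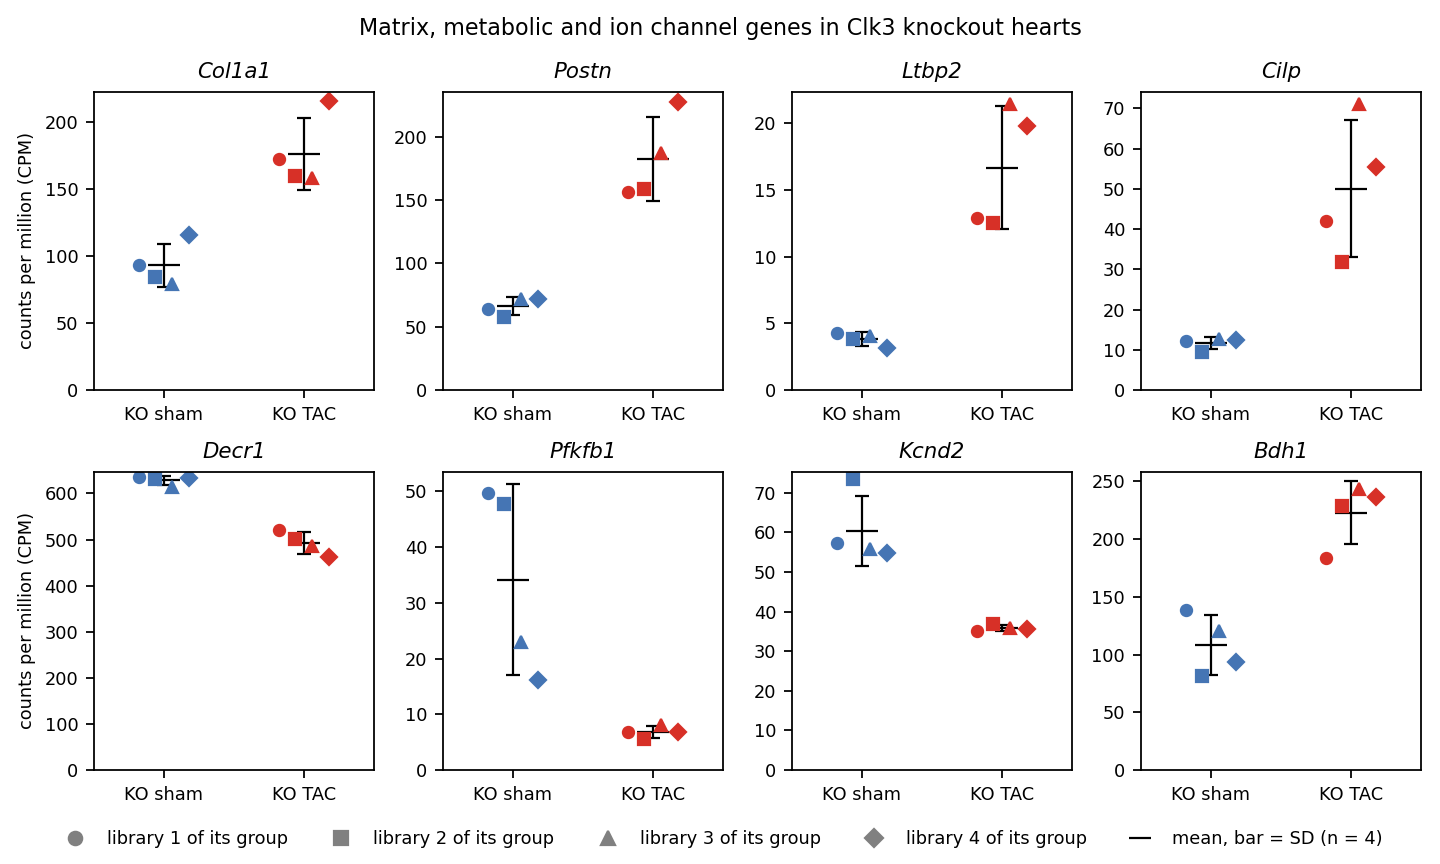
CPM in the 4 knockout sham (blue) and 4 knockout TAC (red) libraries, with marker shape for library number and black bars for mean ± SD (n = 4). Col1a1, Postn, Ltbp2, Cilp and Bdh1 are higher in every TAC library, and Decr1, Pfkfb1 and Kcnd2 lower in every TAC library; for Pfkfb1 sham libraries 1 and 2 are the highest.

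Fibroblast identity and activation markers rose in 10 of 29 tested and fell in 1 (median log2 change 0.30). The activation factor Meox1 had 14.7, 14.7, 19.4 and 22.9 CPM after sham and 39.1, 31.4, 30.6 and 42.7 CPM after TAC (log2 change 1.00 ± 0.15, adjusted p = 0.0014). Frzb, a secreted Wnt antagonist, rose from 4.75 ± 0.63 to 12 ± 3.14 CPM (log2 change 1.35 ± 0.19, adjusted p = 0.00127), and the tendon factor Scx rose from 4.58 ± 0.473 to 8.75 ± 0.949 CPM (log2 change 0.93 ± 0.15, adjusted p = 0.00197). Pi16, a marker of quiescent adventitial fibroblasts, also rose, with 68.8, 64.5, 55.9 and 69 CPM after sham and 101, 107, 107 and 127 CPM after TAC (log2 change 0.78 ± 0.12, adjusted p = 0.00155). Scara5, a ferritin receptor of fibroblasts, fell, with 43.4, 39.3, 37.2 and 44.1 CPM after sham and 25.6, 27.3, 22.5 and 28.4 CPM after TAC and no overlap (log2 change -0.66 ± 0.11, adjusted p = 0.00241). The summed level of the 29 markers was 2712 to 3085 CPM after sham and 3109 to 3445 CPM after TAC, a ratio of means of 1.10 (exact two-sided permutation p = 0.0286, adjusted over 11 marker lists 0.0786). Its part in the matrix results was not tested. In bulk tissue, more cells of a type and more RNA per cell cannot be told apart. With the clock term 7 members were called.

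Macrophage and monocyte markers rose in 14 of 27 tested and fell in none (median log2 change 0.58). C1qb and C1qc encode subunits of complement C1q, made by macrophages. C1qb had 30.4, 26.1, 34.6 and 38.6 CPM after sham and 47, 50.2, 57.2 and 58.1 CPM after TAC. C1qc had 30.6, 23.7, 33 and 31.1 CPM after sham and 42.2, 41.6, 44 and 48.9 CPM after TAC. Neither gene overlapped between groups (log2 change 0.71 ± 0.12, adjusted p = 0.00248 and log2 change 0.58 ± 0.09, adjusted p = 0.00238). Fcgr1, the high-affinity IgG receptor, had 2.34, 2.3, 1.9 and 1.83 CPM after sham and 4.99, 3.79, 3.75 and 6.01 CPM after TAC (log2 change 1.14 ± 0.20, adjusted p = 0.00295). Ly86, a partner of an innate immune receptor, rose from 3.5 ± 0.249 to 6.11 ± 1.15 CPM (log2 change 0.81 ± 0.15, adjusted p = 0.00448). The markers summed to 521 to 654 CPM after sham and 732 to 915 CPM after TAC, a ratio of 1.38 (exact permutation p = 0.0286, adjusted over 11 lists 0.0786). Macrophage calls numbered 9 without TAC 4, and 3 with the clock term. The part of this shift in the matrix and cytokine results was not tested.

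Lymphocyte markers were scarce, with 8 of 22 tested, none called by edgeR or DESeq2 (3 at an unadjusted edgeR p under 0.05, and 2 called without both sham 4 and TAC 3). All 8 log2 changes were above 0 (median 0.68). The whole list summed to 13.4 to 17.8 CPM after sham and 17.5 to 23.8 CPM after TAC, a ratio of means of 1.40 (exact permutation p = 0.0571). Igkc and Cd4 had log2 changes of 1.16 ± 0.41 and 0.78 ± 0.32 (adjusted p = 0.0762 and 0.113). Of 8 neutrophil and mast cell markers tested, S100a8 and S100a9, the calprotectin subunits, rose, S100a9 with 0.206, 0.613, 0.141 and 0.219 CPM after sham and 0.646, 0.879, 1.79 and 0.793 CPM after TAC (log2 change 1.85 ± 0.51, adjusted p = 0.0279). Both lost their calls in at least 4 of the 8 fits that each left out 1 library, without both sham 4 and TAC 3 and with the clock term, and 8 of the 16 listed markers, among them Ly6g, Mpo and Elane, were under 0.5 CPM in all 8 libraries.

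Endothelial markers rose in 5 of 28 and fell in none (17.9% called, against 13.0% of all genes tested, median log2 change 0.23). Their sum did not separate the groups, at 5731 to 6323 CPM after sham and 5542 to 6661 CPM after TAC (exact permutation p = 0.314). Ly6c1, a capillary marker, had 128, 125, 141 and 159 CPM after sham and 196, 186, 168 and 187 CPM after TAC (log2 change 0.41 ± 0.09, adjusted p = 0.00712). Sox18, a vessel transcription factor, had 37.5, 30.0, 40.3 and 43.2 CPM after sham and 65.7, 72.2, 44.6 and 71.9 CPM after TAC, where TAC library 3 lay near sham library 4 (log2 change 0.75 ± 0.18, adjusted p = 0.0167). Cldn5, of endothelial tight junctions, overlapped (log2 change 0.74 ± 0.18, adjusted p = 0.0184). Endothelial calls numbered 1 without TAC 4 or sham 2, 2 without sham 1, 3 without TAC 1, TAC 2 or sham 3 and 8 without sham 4, 12 without both sham 4 and TAC 3, and 0 with the clock term. Of 20 smooth muscle and pericyte markers, 2 rose and 1 fell (15.0% called, against 13.0% of all genes tested, median log2 change 0.31). Des and the vitronectin gene Vtn rose (log2 changes 0.37 and 0.44), Des being a muscle cell gene as well, and Abcc9, the sulfonylurea receptor subunit shared by pericytes and heart muscle, fell, with 522, 532, 579 and 499 CPM after sham and 363, 392, 454 and 390.2 CPM after TAC (log2 change -0.41 ± 0.09, adjusted p = 0.0104). Without the same pair of libraries 9 rose and 1 fell, and single leave-outs gave 6 without TAC 3 and 10 without sham 4. The clock term left 0 calls.

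Of 12 atrial markers tested 3 rose, Nppa among them, and 2 fell, with a median log2 change of -0.20. The list without Nppa summed to 936 to 1104 CPM after sham and 1139 to 1240 CPM after TAC (ratio 1.14, exact permutation p = 0.0286, adjusted over 11 lists 0.0786), so that the sum and the median differ in sign. The atrial genes Sln, Bmp10 and Dhrs9 were under 0.5 CPM in all 8 libraries. Pam, an abundant atrial enzyme that amidates peptides and is also found in ventricle, had 723, 753, 776 and 693 CPM after sham and 956, 973, 1005 and 985 CPM after TAC (log2 change 0.41 ± 0.10, adjusted p = 0.0143). Dkk3 rose as well, although the call was lost in all 8 fits that each left out 1 library (log2 change 1.49 ± 0.46, adjusted p = 0.0441), and Kcnj3 and Angpt1 fell (log2 changes -0.83 ± 0.13 and -1.53 ± 0.39). Calls with the clock term were 1 higher and 1 lower. Of 10 glial and neuronal markers tested, 1 rose, Uchl1, and 2 fell (median log2 change -0.31). Their calls numbered 1 without TAC 3, sham 1, sham 2 or sham 4, 1 without both sham 4 and TAC 3, and 1 with the clock term. The list summed to 54.9 to 62.1 CPM after sham and 42.7 to 54.7 CPM after TAC (ratio 0.844, exact permutation p = 0.0286, adjusted over 11 lists 0.0786). Cdh19, a Schwann cell cadherin, had 17.5, 15.6, 14.4 and 12.9 CPM after sham and 9.23, 8.58, 8.37 and 10.7 CPM after TAC (log2 change -0.72 ± 0.16, adjusted p = 0.0102). Of 6 epicardial markers tested, Aldh1a2 and Krt18 rose (log2 changes 1.16 ± 0.29 and 1.62 ± 0.48). Of the 14 listed, 8, among them Upk3b, Msln and Krt19, were under 0.5 CPM in all 8 libraries. Of 9 fat markers tested, 1 was called (11.1%, against 13.0% of all genes tested). That was Cidea, which rose (0.28 ± 0.09), and 5 of the 9 had log2 changes below 0. The fat markers Ucp1, Lep and Retn were under 0.5 CPM in all 8 libraries. Of 7 red cell markers, 1 was called (14.3%, against 13.0% of all genes tested). That was Hba-a2, which rose (0.52 ± 0.14) and whose reads may be divided with its near-identical copy Hba-a1. These 4 calls were each lost in at least 3 of the 8 fits that left out 1 library, and all were lost with the clock term. No fat marker was called without both sham 4 and TAC 3. The epicardial list summed to 62.5 ± 3.31 CPM after sham and 70.2 ± 7.81 CPM after TAC (SD, n = 4 each, exact permutation p = 0.0571). The fat markers summed to 746 to 803 CPM and 799 to 909 CPM (exact permutation p = 0.0571), although the median log2 change of their 9 tested genes was -0.49. Fabp4 belongs to both this list and the endothelial list, and its part in the sum was not tested. The red cell markers summed to 283 to 376 CPM and 327 to 434 CPM (exact permutation p = 0.143).

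Among the 12 largest falls, by the same rule as the rises, were Xlr4b, Pfkfb1, Ccl11, Fgf10, Tll2, Gpr75, Rp1, Cenpf, Retnla, Irx2 and Rasef. The rule takes only genes without overlap, so the absence of overlap in genes it picked was fixed by the choice. Pfkfb1, which sets the level of fructose 2,6-bisphosphate, had 49.7, 47.8, 23 and 16.2 CPM after sham and 6.74, 5.61, 8.1 and 6.8 CPM after TAC (4.99-fold lower, log2 change -2.32 ± 0.29, adjusted p = 0.000683). Sham libraries 1 and 2, from mice of 11 weeks, were above sham libraries 3 and 4, of 10 weeks. It nevertheless passed in the 10-week libraries alone (adjusted p = 0.0207). Cenpf, a centromere protein better known from dividing cells, had 175, 154, 77.8 and 127 CPM after sham and 31.8, 38.5, 37.3 and 32.5 CPM after TAC with no overlap (log2 change -1.93 ± 0.33, adjusted p = 0.00281).

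Ccl11, eotaxin, the attractant of eosinophils, had 7.85, 10.6, 5.99 and 4.38 CPM after sham and 1.75, 1.08, 1.36 and 1.65 CPM after TAC (4.96-fold lower, log2 change -2.31 ± 0.30, adjusted p = 0.000834). Fgf10, a mesenchymal growth factor, had 1.65, 1.38, 1.13 and 1.17 CPM after sham and 0.0923, 0.27, 0.326 and 0.33 CPM after TAC. Rasef, a Rab-like GTPase, had 1.79, 3.22, 1.13 and 1.97 CPM after sham and 0.554, 0.541, 0.652 and 0.594 CPM after TAC. Both fell (log2 change -2.28 ± 0.46, adjusted p = 0.00632 and log2 change -1.76 ± 0.36, adjusted p = 0.00632). Retnla, a resistin-like product of alternatively activated macrophages, had 4.06, 3.6, 2.18 and 4.38 CPM after sham and 1.29, 1.42, 0.109 and 1.19 CPM after TAC, with TAC library 3 nearly devoid of it (log2 change -1.88 ± 0.50, adjusted p = 0.0248). Xlr4b belongs to a family of near-identical X-linked genes among which reads may be divided, and had 3.1, 0.459, 3.1 and 2.12 CPM after sham and 0.369, 0.406, 0.272 and 0.33 CPM after TAC. Its call was lost without sham library 1 (log2 change -2.67 ± 0.65, adjusted p = 0.0162). Rp1, a microtubule-associated protein, fell from 3.45 ± 1.99 to 0.838 ± 0.233 CPM (adjusted p = 0.0384). Irx2, a homeobox gene, fell by a log2 change of -1.84 ± 0.49, and so did the low-level Tll2 and Gpr75 (-2.17 ± 0.55 and -2.03 ± 0.59). The calls of Tll2, Gpr75, Rp1, Irx2 and Retnla were each lost in 2 to 6 of the 8 fits that left out 1 library.

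Potassium channel genes fell in 8 of 27 tested and rose in none (median log2 change -0.19). Kcnd2, the Kv4.2 pore of the fast transient outward current that repolarises mouse ventricle, had 57.2, 73.4, 55.7 and 54.7 CPM after sham and 35.2, 37, 35.8 and 35.5 CPM after TAC, with the TAC libraries within 2 CPM of each other (log2 change -0.75 ± 0.11, adjusted p = 0.00139). Kcnj3 and Kcnj5 encode the subunits of the acetylcholine-gated channel. Kcnj3 had 131, 138, 150.0 and 121 CPM after sham and 63.5, 81.7, 95.7 and 62.2 CPM after TAC. Kcnj5 had 115, 131, 129 and 106 CPM after sham and 73.1, 84, 92.5 and 75.8 CPM after TAC. Both fell without overlap (log2 change -0.83 ± 0.13, adjusted p = 0.00216 and log2 change -0.56 ± 0.09, adjusted p = 0.00248). Kcnv2, a silent modifier subunit, had 29.9, 26.8, 15.3 and 27 CPM after sham and 14.3, 12.9, 12.4 and 8.26 CPM after TAC (log2 change -1.05 ± 0.19, adjusted p = 0.00395). Potassium channel calls numbered 5 without sham 2, and 3 with the clock term.

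Calcium and sodium handling genes fell in 7 of 34 tested and rose in 1, Sri, sorcin (log2 change 0.24 ± 0.07, a call lost in 6 of the 8 fits that each left out 1 library), with a median log2 change of -0.16. Atp2a2, the SERCA2 pump that refills the sarcoplasmic reticulum, had 8524, 8797, 8755 and 8121 CPM after sham and 7262, 7391, 7369 and 6572 CPM after TAC, so that the groups did not overlap but the fall was small (1.2-fold, log2 change -0.26 ± 0.07, adjusted p = 0.0194). Cacna1c, the pore of the L-type calcium channel, had 472, 479.5, 383 and 379 CPM after sham and 298, 322, 338 and 299.8 CPM after TAC. Its beta subunit Cacnb2 had 86.6, 112, 104 and 93.7 CPM after sham and 57.1, 64.2, 77.8 and 64.8 CPM after TAC. Neither overlapped between groups (log2 change -0.45 ± 0.10, adjusted p = 0.013 and log2 change -0.58 ± 0.10, adjusted p = 0.00239). The ryanodine receptor Ryr2, which releases the stored calcium, had 2517, 2659, 2440.2 and 2090.0 CPM after sham and 1522, 2012, 2003 and 1744 CPM after TAC (log2 change -0.41 ± 0.10, adjusted p = 0.0166). The kinase Camk2a fell from 72.9 ± 5.26 to 53.2 ± 3.98 CPM (log2 change -0.45 ± 0.10, adjusted p = 0.0127). The call of Cacna1c was lost without sham library 2, and those of Atp2a2 and Ryr2 in 4 and 3 of the 8 fits that each left out 1 library. Calcium and sodium calls numbered 2 without sham 2, 3 without TAC 4 or sham 1 and 5 without TAC 1, and 0 with the clock term.

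Genes of fatty acid uptake and oxidation fell in 10 of 38 tested and rose in none, and 35 of the 38 log2 changes were below 0 (median -0.19). Decr1, which handles unsaturated fatty acids, had 635, 631, 613 and 633 CPM after sham and 520.3, 502, 486 and 463 CPM after TAC (log2 change -0.35 ± 0.08, adjusted p = 0.011). Etfdh, which passes electrons from oxidation to the respiratory chain, had 917, 938, 921 and 888 CPM after sham and 772, 758, 746 and 685 CPM after TAC (log2 change -0.31 ± 0.07, adjusted p = 0.0127). Both were lower in every TAC library than in any sham library. Acadsb and Acad10, acyl-CoA dehydrogenases, fell from 240.1 ± 12.3 to 198 ± 4.35 CPM and from 14.4 ± 1.2 to 8.94 ± 1.1 CPM (log2 changes -0.28 ± 0.06 and -0.69 ± 0.17). Fatty acid calls numbered 4 without TAC 4, sham 1 or sham 2 and 6 without TAC 2, and 0 with the clock term. None of the 19 transcription regulators of metabolism tested was called by edgeR or DESeq2, and 0 had an unadjusted edgeR p under 0.05. Examples are Pparg and Ppargc1b (log2 changes 0.32 ± 0.20 and -0.24 ± 0.15).

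Among 40 genes of the citric acid cycle, ketone use and branched-chain amino acid breakdown, 5 fell and 1 rose (median log2 change -0.09). That is 15.0% called, against 13.0% of all genes tested. The gene that rose was Bdh1, the first enzyme of ketone body oxidation, with 138, 81.1, 120.0 and 93.7 CPM after sham and 183, 229, 243 and 236 CPM after TAC, so that every TAC library exceeded every sham library (2.06-fold, log2 change 1.04 ± 0.20, adjusted p = 0.00464). It also passed with the clock term (adjusted p = 0.0381). Mut, Dbt and Mccc2, of propionate and branched-chain breakdown, fell (log2 changes -0.33 ± 0.06, -0.33 ± 0.07 and -0.27 ± 0.07). Calls in this group numbered 3 without TAC 4, sham 1 or sham 2, and 1, Bdh1, with the clock term. Of 71 nuclear respiratory chain genes 2 fell (2.82%, against 6.26% of all genes tested), Ndufs1 and Ndufb2 (log2 changes -0.25 ± 0.07 and -0.36 ± 0.11). Their calls were lost in 4 and 7 of the 8 fits that each left out 1 library and with the clock term. None of 11 mitochondrially encoded genes was called by edgeR or DESeq2, and 0 had an unadjusted edgeR p under 0.05, with a median log2 change of -0.15 and mt-Nd5 at -0.22 ± 0.12.

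Glucose uptake and glycolysis genes rose in 5 of 32 and fell in 1, Pfkfb1 (18.75% called, against 13.0% of all genes tested, median log2 change 0.01). Pfkp, the platelet phosphofructokinase, had 78, 75.4, 69.5 and 107 CPM after sham and 159, 131, 107 and 149 CPM after TAC, with TAC library 3 just above sham library 4 (log2 change 0.73 ± 0.16, adjusted p = 0.0107). Pgam1, a phosphoglycerate mutase, and Slc16a3, a lactate exporter, rose from 21.7 ± 3.8 to 30.8 ± 4.96 CPM and from 1.63 ± 0.25 to 2.74 ± 0.303 CPM (log2 changes 0.51 ± 0.13 and 0.75 ± 0.19). Glycolysis calls numbered 3 without sham 1, sham 2 or sham 3, and 1, Pfkfb1, with the clock term.

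Heat shock and chaperone genes rose in 8 of 24 and fell in none (median log2 change 0.27). The small heat shock protein Hspb1 had 146, 116, 134 and 163 CPM after sham and 222, 206, 237 and 183 CPM after TAC (log2 change 0.60 ± 0.11, adjusted p = 0.00468). The muscle members Hspb7 and Hspb8 rose from 1602 ± 73.5 to 2039 ± 228 CPM and from 528 ± 25.5 to 659.9 ± 37.3 CPM (log2 changes 0.35 ± 0.08 and 0.32 ± 0.08). Hspa1a and Hspa1b, near-identical inducible genes among which reads may be divided, rose by 1.88 ± 0.59 and 2.12 ± 0.64, and Hspa1a had 1.31, 1.15, 0.986 and 3.65 CPM after sham and 5.82, 2.97, 15.2 and 1.78 CPM after TAC. TAC library 4 was below sham library 4 in Hspa1a, and the calls of Hspa1a and Hspa1b were lost in 5 and 4 of the 8 fits that each left out 1 library. Chaperone calls numbered 2 without sham 2 or sham 3, 3 without TAC 1 or sham 1 and 5 without TAC 2 or TAC 3, and 1 with the clock term. In the endoplasmic reticulum and integrated stress response, 6 of 27 rose and none fell (22.2% called, against 13.0% of all genes tested, median log2 change 0.17). Besides Gdf15, the transcription factor Atf4 had 91.8, 88.1, 87.6 and 114 CPM after sham and 145, 119, 129 and 108 CPM after TAC, with TAC library 4 below sham library 4 (log2 change 0.39 ± 0.09, adjusted p = 0.0159). Its relative Atf5 and the proline enzyme Aldh18a1 rose without overlap (log2 changes 0.60 ± 0.15 and 0.43 ± 0.10). Stress response calls numbered 2 without sham 1 or sham 2 and 3 without TAC 3, and 1 with the clock term.

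Immediate early genes, which respond within minutes to many stimuli, rose in 5 of 23 and fell in none (median log2 change 0.43). That is 21.7% called, against 13.0% of all genes tested. Egr2 had 0.619, 0.153, 0.423 and 0.731 CPM after sham and 2.03, 1.01, 1.58 and 1.59 CPM after TAC (log2 change 1.64 ± 0.34, adjusted p = 0.00711). Myc had 2.34, 2.07, 1.83 and 2.7 CPM after sham and 5.82, 4.53, 2.88 and 3.3 CPM after TAC (log2 change 0.86 ± 0.22, adjusted p = 0.0208). Both were low and did not overlap. Btg2 and Ier5 overlapped, with TAC library 1 highest and sham library 4 above the other sham libraries (log2 changes 0.74 ± 0.20 and 0.74 ± 0.22). Immediate early calls numbered 1 without TAC 1, sham 2 or sham 3, 2 without sham 1, 3 without TAC 2 or TAC 3 and 10 without sham 4, 8 without both sham 4 and TAC 3, and 0 with the clock term. Interferon response genes rose in 5 of 26 and fell in none (19.2% called, against 13.0% of all genes tested). Of the 26 changes, 25 were above 0 (median log2 change 0.36). Bst2, tetherin, had 20.7, 20.3, 23.2 and 22.9 CPM after sham and 29, 27.4, 34.6 and 31.4 CPM after TAC (log2 change 0.49 ± 0.09, adjusted p = 0.00422). Irf7, Rsad2 and Cxcl10 rose by log2 changes of 0.69 ± 0.17, 0.94 ± 0.23 and 1.29 ± 0.32, and Irf7 and Rsad2 overlapped. Interferon calls numbered 2 without sham 1 or sham 2, 3 without TAC 2 or TAC 4 and 9 without sham 3, 2 without both sham 4 and TAC 3, and 2 with the clock term.

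Cytokines, chemokines and their receptors moved in both directions, with 7 of 31 tested rising and 3 falling (median log2 change 0.15). Lgals3, galectin-3 of macrophages, had 2.89, 1.38, 1.34 and 2.78 CPM after sham and 4.06, 4.73, 7.99 and 5.88 CPM after TAC (log2 change 1.44 ± 0.27, adjusted p = 0.00464). Tnfrsf12a, the TWEAK receptor, had 56.9, 42.9, 58.8 and 91.3 CPM after sham and 207, 153, 94.8 and 122 CPM after TAC, with TAC library 3 only just above sham library 4 (log2 change 1.20 ± 0.22, adjusted p = 0.00423). The leukaemia inhibitory factor receptor Lifr had 126, 128, 116 and 110.3 CPM after sham and 88.6, 94.6, 99.2 and 83.7 CPM after TAC (log2 change -0.39 ± 0.08, adjusted p = 0.00519). Ctf1, a ligand of that receptor, fell as well (log2 change -0.48 ± 0.14, adjusted p = 0.0318), a call lost in 5 of the 8 fits that each left out 1 library. Cytokine calls numbered 5 without TAC 4 and 6 without sham 2, and 2 with the clock term.

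Among 42 hypertrophic signalling genes, 6 rose and 3 fell (21.4% called, against 13.0% of all genes tested, median log2 change -0.02). Edn3, an endothelin, had 1.79, 2.45, 7.61 and 4.02 CPM after sham and 15.3, 20.3, 17.3 and 10.4 CPM after TAC, with no overlap (3.98-fold, log2 change 1.99 ± 0.33, adjusted p = 0.00238). Grk5, a kinase that desensitises receptors and acts in the nucleus, had 37.6, 38.5, 31.4 and 43.8 CPM after sham and 49.7, 52.3, 65.1 and 53.1 CPM after TAC (log2 change 0.54 ± 0.12, adjusted p = 0.0114). Ddah2, which degrades an inhibitor of nitric oxide synthase, rose from 23.5 ± 1.37 to 32.8 ± 3.67 CPM (log2 change 0.47 ± 0.09, adjusted p = 0.00457). Signalling calls numbered 4 without sham 2, and 1 with the clock term. Of 44 growth factor ligands, receptors and binding proteins, 6 rose and 4 fell (22.7% called, against 13.0% of all genes tested, median log2 change 0.01). Igfbp7, an insulin-like growth factor binding protein, had 126, 119, 129 and 141 CPM after sham and 228, 202, 185 and 259.6 CPM after TAC. Its relative Igfbp6 had 10.4, 8.96, 9.51 and 10.9 CPM after sham and 14, 14.9, 22 and 14.3 CPM after TAC. Both rose without overlap (log2 change 0.76 ± 0.11, adjusted p = 0.00139 and log2 change 0.72 ± 0.13, adjusted p = 0.0041). Fgf16, a growth factor of heart muscle, had 27, 31.6, 21.8 and 20.2 CPM after sham and 11.1, 11.7, 16.7 and 15.7 CPM after TAC (log2 change -0.85 ± 0.17, adjusted p = 0.0063) and fell like Fgf10. Growth factor calls numbered 6 without TAC 1 or sham 2, and 2 with the clock term.

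Cell cycle genes were called in 4 of 34 (11.8%, against 13.0% of all genes tested), with 3 higher and 1 lower. Of the 34 log2 changes, 30 were above 0 (median 0.34). Ccnd2, cyclin D2, had 241, 253, 302 and 227 CPM after sham and 309.6, 369.9, 385 and 382 CPM after TAC (log2 change 0.50 ± 0.10, adjusted p = 0.00524). Aurka, the mitotic kinase, had 0.895, 0.842, 0.705 and 0.877 CPM after sham and 1.57, 1.42, 1.41 and 1.98 CPM after TAC, and its call was lost without TAC library 4 (log2 change 0.94 ± 0.23, adjusted p = 0.0165). Cdkn1a, the p21 inhibitor of division, had 18.2, 15.6, 18.3 and 56.1 CPM after sham and 74.2, 66.3, 54.3 and 52.6 CPM after TAC, where sham library 4 lay within the TAC range (log2 change 1.19 ± 0.32, adjusted p = 0.0266). The fourth was Cenpf, described above. Cell cycle calls numbered 8 without TAC 3, and without both sham 4 and TAC 3 there were 6 higher and 1 lower. The clock term left 1 higher and 1 lower.

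Clock genes fell in 5 of 19 and rose in none (median log2 change -0.35). Per3, a repressor of the clock, had 98.3, 102, 97.2 and 44.3 CPM after sham and 31.3, 27.1, 44.9 and 31.2 CPM after TAC, so sham library 4 lay among the TAC libraries and TAC library 3 above the other TAC libraries (log2 change -1.34 ± 0.22, adjusted p = 0.00238). Hlf and Tef, output factors, followed the same order (log2 changes -1.08 ± 0.19 and -0.69 ± 0.14). Arntl, the activator BMAL1, had 4.4, 4.82, 5.5 and 24.3 CPM after sham and 23.2, 23.2, 9.02 and 22.1 CPM after TAC, which crossed the groups in the same 2 libraries and did not pass (log2 change 0.98 ± 0.46, adjusted p = 0.167). Without both libraries 3 clock genes rose and 10 fell, without TAC 3 alone 10 were called and without sham 4 alone 11, and with the clock score, built from some of these genes, as a term 2 fell. The hour at which hearts were collected is not stated.

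CLK kinases and the SR proteins they phosphorylate fell in 6 of 24 and rose in none (median log2 change -0.20). Clk3 itself did not pass (log2 change -0.18 ± 0.14, adjusted p = 0.405). Srsf1, a founding SR protein, had 202, 208, 199.6 and 215 CPM after sham and 179, 169, 159.5 and 182 CPM after TAC (log2 change -0.26 ± 0.07, adjusted p = 0.0307). The kinase Prpf4b and the nuclear speckle protein Son fell without overlap (log2 changes -0.30 ± 0.09 and -0.39 ± 0.12). Srsf5 overlapped, with TAC library 4 above sham library 4 (log2 change -0.42 ± 0.13, adjusted p = 0.0388). CLK and SR calls numbered 0 without TAC 2, TAC 3, sham 1, sham 2 or sham 3 and 2 without TAC 4 or sham 4, 0 without both sham 4 and TAC 3, and 0 with the clock term. Of 25 cardiac splicing regulators 2 fell (8.0%, against 6.26% of all genes tested). Splicing regulator calls numbered 1 without TAC 4 or sham 2 and 4 without TAC 1, and 0 with the clock term. Rbfox1, which directs exons of muscle and nerve, had 77.4, 74.4, 79.3 and 81.5 CPM after sham and 57.7, 55.7, 63.6 and 48.9 CPM after TAC (log2 change -0.47 ± 0.10, adjusted p = 0.00969). Rbm20, which splices titin, fell from 356 ± 17 to 280.0 ± 20.6 CPM (log2 change -0.35 ± 0.09, adjusted p = 0.019). Ribosomal protein genes rose in 3 of 52 (5.77%, against 6.73% of all genes tested) and fell in none. Of the 52 changes, 46 were above 0 (median 0.10). Rpl3 and Rpl28 were among those that rose (log2 changes 0.38 ± 0.09 and 0.22 ± 0.07), although no ribosomal protein gene was called with the clock term.

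Falls were spread unevenly over kinds of transcript. Of 13400 protein-coding genes tested, 1034 rose and 731 fell. Of 413 lincRNAs, 5 rose and 57 fell (13.8%), and of 367 antisense transcripts 5 rose and 30 fell (8.17%). Of 587 models that the annotation marks as still to be shown by experiment, 0 rose and 99 fell (16.9%). Among protein-coding genes 5.46% fell, against 6.26% of all genes tested. Median levels were 1.51 CPM for lincRNAs, 1.32 CPM for antisense transcripts and 1.04 CPM for those models, against 25.03 CPM for protein-coding genes. Whether the uneven spread holds with the clock term, in the 10-week libraries or with libraries left out was not tested. Protein-coding genes that fell spanned a median of 46.7 kb on the genome, against 16.7 kb for those that rose and 24.6 kb for the rest. Among protein-coding genes under 10 kb, 10.9% rose and 2.29% fell, and among those over 200 kb, 4.02% rose and 11.5% fell. The share of reads outside annotated genes was lower in every TAC library (12.3% to 14.3%) than in any sham library (17.1% to 19.0%). Its part in these falls was not tested. With the strand setting of the counting unknown, reads of antisense models and of the genes they overlap cannot be told apart.

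The wild-type arm of the series has 4 sham and 2 TAC libraries, and the difference between genotypes was tested as an interaction in the same fit. It called 3 genes of 15651 (0.0192%), Postn, Ddah1 and Ppm1e, against 1022 at an unadjusted p under 0.05. Postn had 91, 55.9, 70.4 and 55.3 CPM after sham and 879 and 487 CPM after TAC in wild type, a log2 change of 3.33 ± 0.22 against 1.46 ± 0.19 in knockout hearts (difference -1.87 ± 0.29, adjusted p = 0.0403). Ddah1, which degrades an inhibitor of nitric oxide synthase, had 8.95, 7.81, 7.05 and 8.04 CPM after sham and 9.79, 10.1, 10.3 and 10.9 CPM after TAC in knockout hearts. In wild type it had 6.56, 7.24, 7.88 and 6.74 CPM and 19.3 and 18.7 CPM, respectively (difference -1.04 ± 0.15, adjusted p = 0.0403). Ppm1e, a protein phosphatase, had 27.5, 27.1, 34.5 and 23.2 CPM after sham and 32.5, 34.9, 40.0 and 32 CPM after TAC in knockout hearts. Its wild-type values were 15.9, 18.5, 17.3 and 19.5 CPM and 46.4 and 51.5 CPM (difference -1.14 ± 0.17, adjusted p = 0.0403). All 3 had smaller log2 changes in knockout hearts, where Ppm1e did not pass (log2 change 0.31 ± 0.11, adjusted p = 0.0756), and for Ppm1e the knockout sham libraries were already above the wild-type sham libraries.

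The number of calls changed with the libraries. Leaving out the library labelled wild-type TAC 1 leaves a lone wild-type TAC library, assumed to vary like the other groups. The adjusted p values of Postn, Ddah1 and Ppm1e were then 0.289, 0.164 and 0.112, and Loxl3, a collagen cross-linking enzyme, was the gene called (adjusted p = 0.00978). Without wild-type TAC 2 there were 32 calls, without knockout TAC 3 there were 7, without knockout TAC 4 there were 4, and without knockout sham 4 or wild-type sham 1 there was 1, and leaving out any of knockout TAC 1 or 2, knockout sham 1, 2 or 3, or wild-type sham 2, 3 or 4 gave 0. DESeq2 called 37, the fit with no filter on low counts 66, the fit with the clock term 1 and the 10-week libraries alone 0. Of the 8 genes with the smallest p, the other 5 did not pass: Loxl3, Slc22a4, Scara5, Cilp and Ltbp2 (differences -1.28 ± 0.21, -1.18 ± 0.19, 1.01 ± 0.18, -1.91 ± 0.36 and -1.77 ± 0.34; adjusted p = 0.0553, 0.0553, 0.108, 0.162 and 0.184).

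Side by side, the wild-type contrast called 1912 genes (12.2%), and 965 genes were called in both genotypes in the same direction and 0 in opposite directions, which is 47.5% of the knockout calls and 50.5% of the wild-type calls. Of the 2033 knockout calls, 900 (44.3%) had a larger change of the same direction in wild type. Nppa changed by 3.51 ± 0.27 in wild type against 2.25 ± 0.24 in knockout hearts, Myh7 by 3.78 ± 0.47 against 2.11 ± 0.41, and Acta1 by 2.44 ± 0.52 against 2.28 ± 0.46. Without the library labelled wild-type TAC 1 the difference in Acta1, knockout minus wild type, turned from -0.17 ± 0.69 to 0.69. None of these differences passed (adjusted p = 0.428, 0.629 and 0.994), which does not show that the genotypes respond alike. List medians in wild type and knockout were 1.28 and 0.65 for load-induced genes, 1.03 and 0.66 for the other collagens, -0.37 and -0.19 for fatty acid oxidation, and 0.53 and 0.58 for macrophage markers. Some lists had the larger median in knockout, such as endothelial markers (0.04 and 0.23), smooth muscle and pericyte markers (-0.09 and 0.31) and immediate early genes (0.12 and 0.43). List medians were not tested between genotypes.

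**Figure D5:**
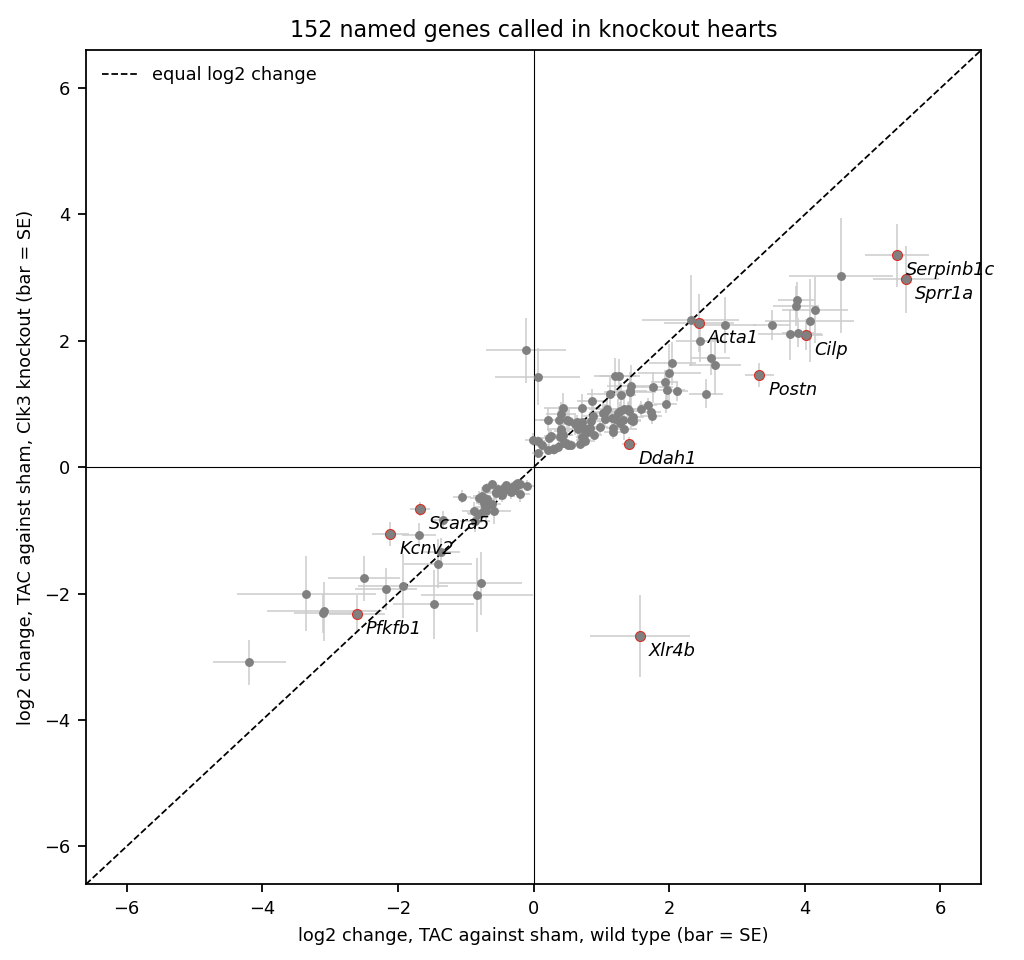
Each point is 1 of the 152 named genes called in knockout hearts, with its log2 change after TAC in wild type on the horizontal axis and in Clk3 knockout on the vertical axis, bars for standard errors and a dashed line for equal change. In 149 of the 152 the direction is the same, and 108 have the larger change in wild type. These genes were picked by rule, in part for a small p of the genotype difference, and do not stand for all calls. Over all 2033 knockout calls, 900 (44.3%) had a larger change of the same direction in wild type. Points in red carry their gene names, and Xlr4b, S100a9 and Vtn lie on the opposite side in wild type.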

How the data were processed

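Messenger RNA of heart tissue was sequenced in 14 libraries. The authors deposited a table of raw read counts per gene for each library, with no normalization, per the file headers. Per the submitters' processing notes, bcl2fastq 2.17.1.14, STAR 2.4.2a, Picard 2.10.3 and the builds mm10 and GRCm38 were used, with no role or order stated. The strand setting of the counting is not given in the sources used here. Groups came from the labels. Libraries were numbered within a group by accession and are not paired. Of 51912 genes, 51719 matched GENCODE M21 identifiers, which gave biotypes and positions. Totals of reads outside genes and of ambiguous reads were kept out of library sizes, and made up 12.3% to 19.0% and 1.43% to 1.58% of the reads in the 8 knockout libraries.

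Counts were analysed with edgeR 4.0.16 in R 4.3.3 (filterByExpr with a minimum count of 10, TMM scaling, quasi-likelihood test, Benjamini-Hochberg adjustment, threshold 0.05), with all 14 libraries in a model of 4 groups, giving a shared dispersion (biological coefficient of variation 11.8%). Filtering left 15651 genes. Fold changes are log2 ± SE, and values per library are TMM-scaled CPM. Depth was 11385818 to 20369637 counts per library, and genes near 0 CPM rest on few reads. Exact two-sided permutation tests in SciPy 1.17.1 served for sums and shares, for which 4 against 4 allows no p below 0.0286. The tests were tried on simulated counts. Alternatives were DESeq2 1.42.0, other scalings and filters, knockout or 10-week libraries alone, a clock score as a term, and leaving out libraries.

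The members and the 40 gene lists were chosen with earlier results of these data known. Genes named are Clk3 and 7 load markers, the 12 largest rises and 12 largest falls among called protein-coding genes of at least 1 CPM in the higher group, without overlap and with a symbol that is no Gm or Rik name, up to 4 members of smallest p per list, and the 8 genes of smallest p for the genotype difference. Adamts3, Col3a1, Lox, Col6a6, Thbs1, Thbs2, Tnc, Emilin2, Efemp1, Sri, Ctf1, Arntl, Hspa1a, Hspa1b and 5 genes of the 10-week comparison were named after their values were seen. Some genes that the rule takes are not reported here.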

Additional observations from a re-analysis of the deposited data

Results flagged for a closer look

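In 28 of 386 groups of 4 libraries checked, the highest or lowest library lay so far from its nearest neighbour that Dixon's test at 95% marked it. Chance alone marks about 1 in 20 groups. Sham library 4 was marked 9 times and TAC library 3 was marked 7 times, more often than any other knockout library. The clock score of sham library 4 was -2.20, with -4.87 to -4.74 in the others, and that of TAC library 3 was -4.08, with -2.09 to -1.79 in the others.

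Sham library 4 was apart in Gdf15 at 2.12 CPM (1.2 to 1.3 in the others), Pecam1 at 236 CPM (189.6 to 197 in the others), Hspa1l at 14.1 CPM (8.03 to 9.02 in the others), Atf4 at 114 CPM (87.6 to 91.8 in the others), Btg2 at 66.6 CPM (36.5 to 39.7 in the others), Rcan1 at 162 CPM (97.6 to 108 in the others), Cdkn1a at 56.1 CPM (15.6 to 18.3 in the others) and Per3 at 44.3 CPM (97.2 to 102 in the others). Apart in TAC library 3 were Fmod at 11.5 CPM (1.62 to 2.71 in the others), Col8a2 at 6.9 CPM (1.98 to 2.16 in the others), Col4a1 at 651 CPM (1031 to 1098 in the others), Adipoq at 0.0543 CPM (0 in the others), Atf5 at 87.2 CPM (65 to 66.6 in the others) and Igfbp6 at 22 CPM (14 to 14.9 in the others). TAC library 4 was apart in Atp2a2 at 6572 CPM (7262 to 7391 in the others), Timp1 at 17.8 CPM (3.69 to 5.87 in the others) and Aldh1a2 at 20.7 CPM (7.84 to 8.77 in the others).

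In sham library 2 the values apart were Cilp at 9.57 CPM (12.2 to 12.7 in the others), S100a9 at 0.613 CPM (0.141 to 0.219 in the others) and Kcnd2 at 73.4 CPM (54.7 to 57.2 in the others). Sham library 1 was apart in Gpr75 at 2.82 CPM (0.584 to 0.705 in the others) and Igkc at 0.275 CPM (0.766 to 0.845 in the others). Sham library 3 was apart in Cpa3 at 0.916 CPM (0.482 to 0.536 in the others) and Car3 at 7.12 CPM (0.206 to 1.24 in the others). TAC library 1 was apart in Prpf4b at 142 CPM (119 to 122 in the others). TAC library 2 was apart in Mmp23 at 10.9 CPM (12.6 to 12.7 in the others).

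The interaction term of edgeR called a difference in the effect of TAC, knockout minus wild type, for Postn (-1.87 on the log2 scale), Ddah1 (-1.04) and Ppm1e (-1.14). Each had an adjusted p of 0.0403, with 2 wild-type TAC libraries. The calls did not hold in every fit. No gene was called in the 10-week libraries alone. The same held on leaving out any of knockout TAC 1 or 2, knockout sham 1, 2 or 3, or wild-type sham 2, 3 or 4.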

How the results depend on the processing

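The count of 2033 genes that differed between TAC and sham in knockout hearts ranged from 797 to 2304 when 1 library was left out, and was 15 in the 10-week libraries alone and 255 with the clock score as a term. With 2 sham libraries of 10 weeks, fewer samples enter the former fit. The cause of the change with the clock term was not tested. The other alternatives gave 1975 to 2772 calls. The count of 3 genes whose response differed between genotypes was 37 by DESeq2, 66 with no filter on low counts, 0 in the 10-week libraries and 1 with the clock term, and ranged from 0 to 32 when 1 library was left out. The cause was not tested. The difference of -4.64 percentage points in reads outside genes was -3.99 in the 10-week libraries (exact permutation p = 0.133) and -4.97 to -4.29 with 1 library left out (exact permutation p = 0.0571 each, the smallest possible). Of the 152 called named genes, 142 lost their call in the 10-week libraries and 98 with the clock term, and no called change reversed in any alternative. No paired analysis was possible because the labels give the groups no shared replicate numbers. Depth limits the genes near 1 CPM or below, such as Sprr1a and Acan.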
